A study of Mus musculus with 43 samples.

Results

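Gamma-delta T cells of the mouse spleen were compared between mice given interferon alpha (IFNα) 2 h earlier, as 10000 U under the skin, and mice at baseline. The comparison rests on 5 of the 43 arrays of the series, chosen by their titles: 2 arrays after IFNα and 3 at baseline. All 5 were labelled as cells sorted from the spleen of male C57BL/6 mice aged 6 weeks, and no vehicle injection was labelled for the baseline mice. The series as a whole measured RNA of 9 sorted immune cell types in the same 2 states on Mouse Gene 1.0 ST arrays of Affymetrix. Baseline arrays 1 and 2 were labelled as positive for the gamma-delta receptor and negative for TCRβ, from tissue dissociated and stained. Baseline array 3 and both IFNα arrays were labelled only as positive for the gamma-delta receptor, from tissue dissociated and digested, so baseline array 3 shares its sort and preparation labels with the IFNα arrays. Whether each array stands for its own mouse is not labelled, and the p-values therefore reflect array-to-array spread that may be technical.

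Gamma-delta T cells carry a T cell receptor built from a gamma and a delta chain. Many of them take on an effector programme in the thymus and can release IFN-γ or IL-17 soon after stimulation, without the clonal expansion that naive alpha-beta T cells need. Type I interferons bind the receptor pair IFNAR1 and IFNAR2. The kinases JAK1 and TYK2 then signal to the transcription factor complex ISGF3, which binds the interferon-stimulated response element in the promoters of antiviral genes.

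The receptor segments matched the label, and the other lineage genes were mixed. Trdv2-2, a delta-chain variable segment, had a log2 intensity of 11.13, 11.62 and 11.21 in baseline arrays 1, 2 and 3 and of 10.98 and 11.06 in IFNα arrays 1 and 2. Trgv1, a gamma-chain variable segment, was at 11.99, 12.71 and 12.22 at baseline and at 12.39 and 12.34 after IFNα. At baseline the mean of Trgv1 was 12.31 ± 0.37 (SD, n = 3) in gamma-delta T cells, 10.70 ± 0.71 (SD, n = 3) in NKT cells and 9.08 ± 0.15 (SD, n = 3) in NK cells. Neither segment passed the test after IFNα, with changes of -0.30 for Trdv2-2 (adjusted p = 0.514) and 0.06 for Trgv1 (adjusted p = 0.968). The signalling chain gene Cd3e lay between 12.30 and 12.87 over the 5 arrays. It does not set these cells apart from other T cells, with baseline means of 12.54 in CD4+ T and 12.70 in CD8+ T cells. Sox13 and Blk, a transcription factor and a kinase known from gamma-delta T cells, were at 8.29 ± 0.24 and 9.07 ± 0.53 at baseline (SD, n = 3). Their baseline means in NKT cells were 7.48 and 6.91. The part of B cell RNA in the level of Blk was not tested. Etv5 and Zbtb16, also on the list of gamma-delta T cell identity, went the other way. Their means were 6.79 and 9.04 in gamma-delta T cells and 8.09 and 10.82 in NKT cells. The constant-region genes of the receptor were not analysed here.

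Markers of other cell types varied among the 5 arrays. The summed intensity of 9 B cell markers was 7290, 2764 and 13664 in baseline arrays 1, 2 and 3 and 11206 and 2928 in IFNα arrays 1 and 2. That of 7 NK cell markers was 3420, 2131 and 1676 at baseline and 2329 and 2367 after IFNα, against 28543 to 29758 in sorted NK cells at baseline. That of 9 macrophage and monocyte markers was 950 to 1768 at baseline and 1115 and 1417 after IFNα, against 44372 to 47736 in sorted macrophages. Correlations between the 5 arrays over all genes ran from 0.932 to 0.976, and array medians from 117 to 125 intensity units. In sorted bulk RNA, fewer cells of a type and less RNA per cell cannot be told apart.

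At 2 h, IFNα raised 302 of 19752 genes (1.53%) and lowered 135 (0.683%) in gamma-delta T cells, where a call needed an adjusted p below 0.05 and a change of at least 1 on the log2 scale, that is 2-fold. The rises were the larger changes: 30 of the 302 were of at least 3 on the log2 scale, 73 lay between 2 and 3, and their median was 1.57. Every one of the 135 falls was smaller than 2, with a median of -1.12. The median change of all genes was -0.02. Each adjusted p given here is from limma, with Benjamini-Hochberg adjustment over all genes, and is two-sided. The count of lowered genes depended on single arrays. It was 34 without IFNα array 2, 361 without IFNα array 1, 240 without baseline array 1 and 367 against baseline array 3 alone, while the count of raised genes lay between 250 and 370 when any 1 array was left out and was 252 against baseline array 3 alone.

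**Figure D1:**
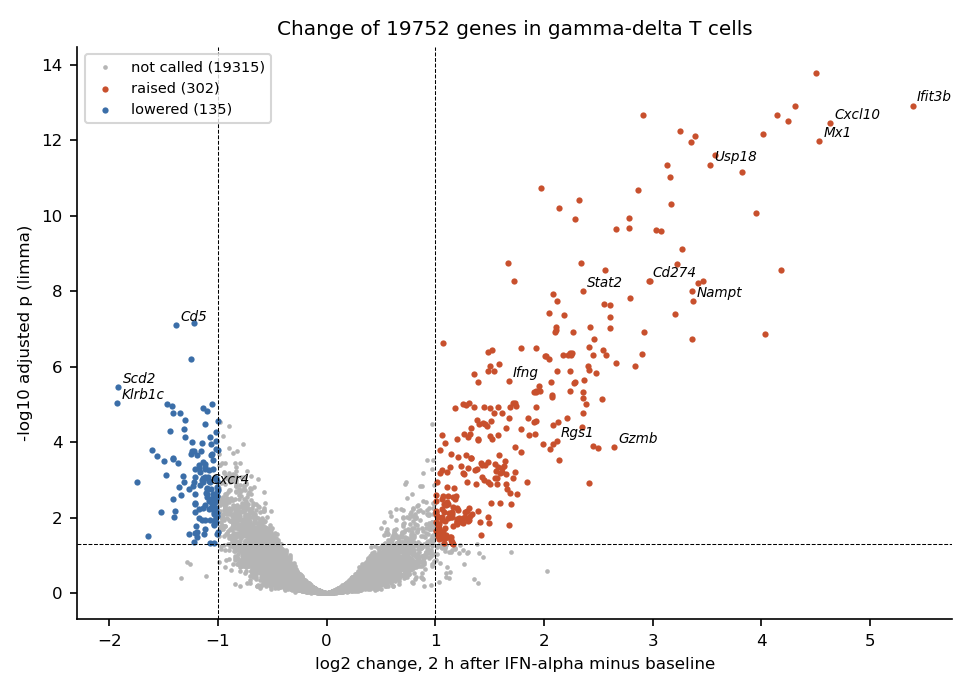
Each point is 1 of 19752 genes in gamma-delta T cells, with the log2 change 2 h after IFNα minus baseline on the x axis and the -log10 of the limma adjusted p on the y axis; dashed lines mark the thresholds of a call. The 302 raised genes reach 5.39 on the log2 scale, while the 135 lowered genes stop at -1.93.

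Promoter sequences were searched for the letters of the response element, as a description with no test. RefSeq promoters (build GRCm38.p6, 250 bases before to 50 bases after the start) were at hand for 238 of the 302 raised genes, 109 of the 135 lowered genes and 15483 of all 19752. The core of the element, GAAA, any 2 bases (NN) and GAAA again, searched on both strands, was found in 24.8% of the raised genes, in 0 of the 109 lowered genes and in 3.88% of all genes. The longer form, in which CT follows the core and which is therefore contained in it, was found in 10.1% of the raised genes, in 0 of the lowered genes and in 0.342% of all genes. Over all 32851 promoters of the table the shares were 3.44% for the core and 0.271% for the longer form. These are matches of letters, not measured binding, and no match says only that the letters are not in this window.

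Among the 25 largest rises described below, 19 had a promoter in the table, 13 of them held the core and 8 the longer form. Stretches around the match are shown for 8 of these rises and for 3 other raised genes, because they let the shared letters be seen side by side. Capitals mark the core, and each stretch is written 5′ to 3′ on the strand on which the match reads that way. The position, counted from the start of the gene, is that of the matched base furthest to the 5′ side on the strand of the gene. For a stretch printed on the other strand this is the last capital.
Ifit3b, chr19:34607757-34607790, minus strand, position -188: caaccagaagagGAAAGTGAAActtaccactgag
Ifit3, chr19:34583361-34583394, minus strand, position -156: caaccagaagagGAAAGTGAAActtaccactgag
Ifit1, chr19:34640773-34640806, minus strand, position -104: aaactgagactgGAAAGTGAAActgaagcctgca
Cxcl10, chr5:92349081-92349114, minus strand, position -213: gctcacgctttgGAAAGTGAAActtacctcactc
Rsad2, chr12:26456551-26456584, plus strand, position -120: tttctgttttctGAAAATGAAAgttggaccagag
Slfn9, chr11:82991854-82991887, plus strand, position -45: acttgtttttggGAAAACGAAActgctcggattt
Gbp7, chr3:142530271-142530304, minus strand, position -53: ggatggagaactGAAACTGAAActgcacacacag
Ddx60, chr8:61928022-61928055, plus strand, position -53: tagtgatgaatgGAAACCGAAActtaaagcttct
Stat2, chr10:128270264-128270297, minus strand, position -222: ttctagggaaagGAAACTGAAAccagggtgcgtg
Socs1, chr16:10785598-10785631, minus strand, position -83: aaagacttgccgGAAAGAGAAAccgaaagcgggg
Serpinb9, chr13:33004483-33004516, minus strand, position -46: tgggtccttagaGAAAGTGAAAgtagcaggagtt
The stretches of Ifit3b and Ifit3 carry the same letters, and the genes are near-identical copies, so how far each probe set reads its own gene is uncertain. In 7 of the 11 stretches the match runs on into CT, the longer form.

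The 250 bases before the start are shown for Ifit3, which holds 2 matches, and for Gzmb, a raised gene with 0, with the letters of a match in capitals on the strand of the gene, where the element reads as its reverse complement.
Ifit3, chr19:34583279-34583528, plus strand: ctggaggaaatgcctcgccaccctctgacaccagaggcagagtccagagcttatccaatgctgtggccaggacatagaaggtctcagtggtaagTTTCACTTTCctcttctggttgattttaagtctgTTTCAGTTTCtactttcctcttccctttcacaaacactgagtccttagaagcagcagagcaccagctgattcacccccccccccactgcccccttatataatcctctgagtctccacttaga
Gzmb, chr14:56262335-56262584, minus strand: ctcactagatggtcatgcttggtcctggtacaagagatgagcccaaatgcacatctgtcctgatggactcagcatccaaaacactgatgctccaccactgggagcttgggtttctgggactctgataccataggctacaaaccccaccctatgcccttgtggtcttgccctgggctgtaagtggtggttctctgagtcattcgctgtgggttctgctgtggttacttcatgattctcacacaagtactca

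Antiviral effectors were 12 of the 25 largest rises. Of 25 measured genes on this list, 20 were raised and 0 lowered, with a median change of 3.17 against -0.02 over all genes. Ifit3b, of the family of proteins that bind viral RNA ends, rose from 3.72, 4.19 and 4.51 at baseline to 9.62 and 9.44 after IFNα, a change of 5.39 ± 0.33 (SE, adjusted p = 1.21e-13) or 41.9-fold. Ifit1 rose from 8.07, 8.59 and 8.32 to 12.58 and 12.43, a change of 4.18 ± 0.40, and Ifit3 from 8.29, 8.34 and 8.67 to 12.56 and 12.59, a change of 4.14. Both IFNα arrays lay far above all 3 baseline arrays for each of these genes. Mx1, a gene of the dynamin-like GTPase family, rose from 5.94, 6.31 and 6.79 to 10.93 and 10.83, a change of 4.53 ± 0.31 or 23.1-fold. Its neighbour Mx2 rose by 4.25. Rsad2, which encodes viperin, rose from 7.89, 7.23 and 7.96 to 12.16 and 11.84, a change of 4.31 ± 0.26. Cmpk2, the mitochondrial nucleotide kinase encoded beside Rsad2, rose by 3.57, from 7.63, 7.67 and 8.14 to 11.50 and 11.26. Isg20, an exonuclease, rose by 3.36 and Eif2ak2, the kinase PKR that halts translation on double-stranded RNA, by 3.46. Oas2 and Oas3, which make the second messenger that activates RNase L, rose by 3.25 and 2.87.

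The membrane proteins that restrict virus entry split. Ifitm3 rose from 7.53, 6.09 and 7.79 to 10.95 and 11.39, a change of 4.03 ± 0.46 (adjusted p = 1.39e-07) or 16.4-fold. Baseline array 2 was the lowest of the 5, and both IFNα arrays were above all 3 baseline arrays. The other two measured family members did not reach the threshold of a call, with changes of 0.78 for Ifitm1 and 0.59 for Ifitm2. The difference between the members was not tested.

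The interferon-inducible GTPases were raised in full: 9 of 9 measured genes were called, with a median change of 2.66. These GTPases attack the membrane around intracellular pathogens. Iigp1 rose from 5.64, 6.63 and 5.95 to 10.49 and 10.66, a change of 4.50 ± 0.25 with the smallest adjusted p of all genes, 1.65e-14. Gbp7 rose from 8.44, 9.08 and 8.54 to 12.04 and 11.88, a change of 3.27 ± 0.29. Gbp5 rose by 3.08 and Gbp8, which rose least on the list, by 1.91. The schlafens, a family with roles in translation and lymphocyte quiescence, had 7 of 8 measured genes raised. Slfn5 rose from 7.66, 9.01 and 8.0 to 12.17 and 12.18, and Slfn9 from 6.68, 7.62 and 6.66 to 10.38 and 10.32. Baseline array 2 was the highest of the 3 for both schlafens, and it still lay far below both IFNα arrays.

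Sensors of nucleic acids were raised in 11 of 16 measured genes, with a median change of 1.88. Ifih1, the RNA helicase MDA5, rose from 6.92, 7.63 and 7.26 to 11.20 and 10.98, a change of 3.82 ± 0.28 or 14.1-fold. Ddx58, the related sensor RIG-I, rose by 2.07 and Dhx58, their regulator LGP2, by 2.78. Of the Toll-like receptors of endosomes, Tlr7 rose from 6.25, 5.97 and 6.96 to 9.84 and 9.38, a change of 3.22 ± 0.30, and Tlr3 from 5.40, 6.02 and 6.12 to 9.02 and 8.93, a change of 3.13 ± 0.23. Tlr7 and Tlr3 sense single-stranded and double-stranded RNA. Tlr9, the sensor of DNA, was at 8.01, 7.67 and 9.52 before and 10.11 and 8.34 after, a change of 0.82 that did not pass (adjusted p = 0.37). Its highest values were in baseline array 3 and IFNα array 1, the 2 arrays with the most B cell marker RNA, and the part of B cell RNA in this value was not tested. Ddx60, a helicase linked to RNA sensing, rose by 3.20, and Ifi214, of the DNA-binding family of Ifi205, by 3.36.

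The enzymes that attach and remove the ubiquitin-like protein ISG15, together with the ADP-ribosylating PARPs, had 11 of 13 measured genes raised and a median change of 2.27. Usp18, which removes ISG15 and also silences the interferon receptor, rose from 9.0, 8.88 and 9.39 to 12.59 and 12.64, a change of 3.52 ± 0.26. Herc6, the mouse ligase for ISG15, rose from 7.53, 8.81 and 8.30 to 11.70 and 11.56. Parp12 rose from 7.77, 7.97 and 8.42 to 11.47 and 11.42, a change of 3.39 ± 0.23. Parp9 and its partner Dtx3l rose by 2.27 and 2.24. The TRIM ligases had 6 of 10 measured genes raised, with a median change of 1.28.

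**Figure D2:**
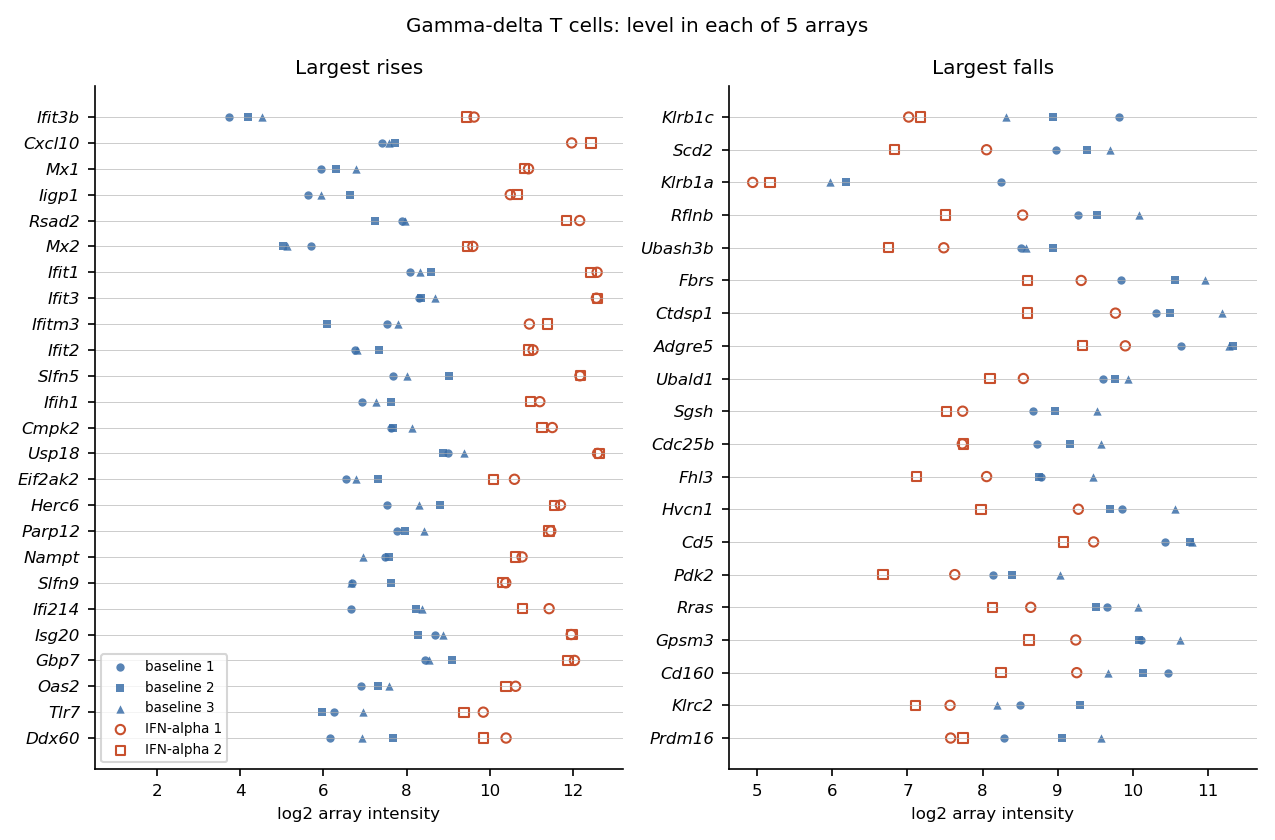
Log2 array intensity (x axis) of the 25 largest rises and 20 largest falls in gamma-delta T cells; filled blue symbols are the 3 baseline arrays and open red symbols the 2 IFNα arrays. The symbols of the 2 states do not overlap for any gene shown, which the rule for naming required. The rule also required an adjusted p below 0.05 with a term for preparation, which left out Klra8. IFNα array 2 lies below array 1 for most of the falls.

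Other genes among the 25 largest rises encode secreted or metabolic proteins. Cxcl10, a chemokine that draws CXCR3-bearing lymphocytes, rose from 7.42, 7.71 and 7.58 to 11.97 and 12.43, a change of 4.63 ± 0.30 (adjusted p = 3.59e-13) or 24.8-fold. Nampt, the enzyme that salvages nicotinamide into NAD, rose from 7.47, 7.57 and 6.96 to 10.78 and 10.62, a change of 3.37 ± 0.35 (adjusted p = 1.79e-08). Both IFNα arrays were more than 3 log2 units above the highest baseline array for Nampt. Each of the 25 rises was also called in all 5 of the other lymphocyte types of the series, and each stayed called in every alternative analysis run.

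The pathway that carries the signal changed in few of its members. Of 19 measured signalling genes and transcription factors, 4 were raised and 0 lowered, and the median change was 0.19. Stat2 rose from 7.94, 8.63 and 8.80 to 10.88 and 10.75, a change of 2.36 ± 0.24. Irf7, which amplifies interferon production, rose from 9.90, 9.32 and 10.10 to 12.06 and 11.70, a change of 2.10 ± 0.24. Nmi and its partner Ifi35 rose by 1.65 and 1.72. Irf1 was 0.98 higher (adjusted p = 0.00555), just under the threshold of a call, and Irf9 was 0.62 higher (adjusted p = 0.117). The receptor genes Ifnar1 and Ifnar2 had changes of -0.05 (adjusted p = 0.949) and -0.22 (adjusted p = 0.578). Of 12 feedback inhibitors, 2 were raised. These were Usp18, at 3.52, and Socs1, which blocks JAK kinases and rose by 1.26, from 9.26, 8.95 and 9.0 to 10.53 and 10.14.

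Genes of MHC class I presentation were called raised in 2 of 16 measured cases and lowered in 0, with a median change of 0.69. Both IFNα arrays were above all 3 baseline arrays for 12 of the 16, against 10.7% of all genes. H2-T24, a nonclassical class I gene, rose from 8.45, 8.52 and 9.04 to 11.00 and 10.43, a change of 2.05 ± 0.22. Tapbp, the tapasin that loads peptide, rose by 1.04 ± 0.20, and it fell under the threshold of a 2-fold change at 0.90 without baseline array 1 and 0.95 without IFNα array 1. Psme2, a proteasome activator, and the peptide pump Tap1 were 0.92 and 0.79 higher (adjusted p = 0.000299 and 0.0121).

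**Figure D3:**
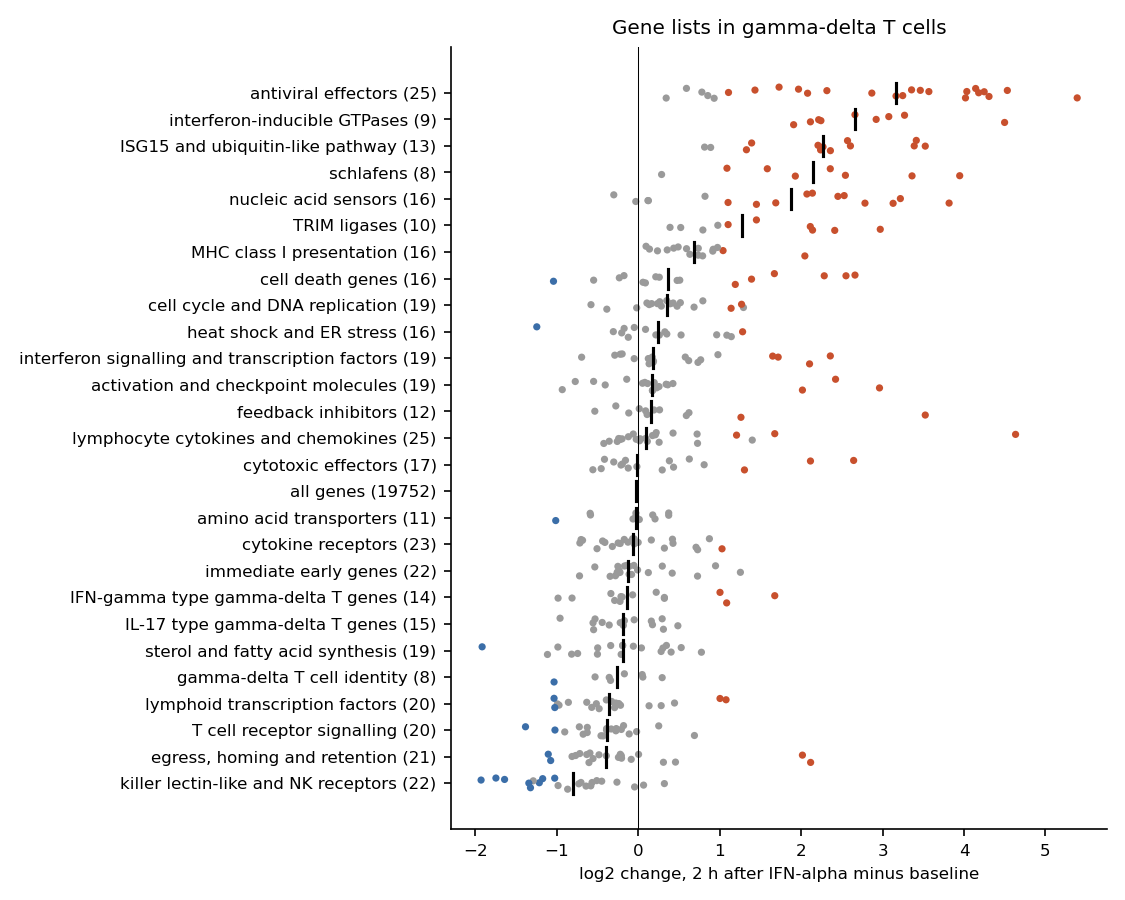
Log2 change 2 h after IFNα minus baseline (x axis) for each measured gene of 26 lists, with the number measured in brackets; red points were raised, blue points lowered, grey points not called, and black bars are medians, with the median of all 19752 genes as its own line. Antiviral effectors have the highest median, 3.17, and killer lectin-like and NK receptors the lowest, -0.80.

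Cytotoxic and cytokine genes of gamma-delta T cells changed in a subset. Of 17 cytotoxic effectors, 3 were raised and 0 lowered, with a median change of -0.02, the same as over all genes. Gzmb, the protease granzyme B, rose from 7.66, 6.39 and 5.91 at baseline to 9.22 and 9.38, a change of 2.65 ± 0.45 (adjusted p = 0.000136) or 6.26-fold. Baseline array 1, which was highest in NK cell markers, was highest in Gzmb too, and the change was 3.39 against baseline array 3 alone. Tnfsf10, the death ligand TRAIL, rose from 8.47, 9.05 and 8.66 to 10.80 and 10.89, a change of 2.12 ± 0.27. Serpinb9, the inhibitor that protects killer cells from their own granzyme B, rose by 1.31 ± 0.33 (adjusted p = 0.0115), with an adjusted p of 0.122 without IFNα array 2 and 0.0609 without IFNα array 1. Gzma, granzyme A, was at 9.83, 7.51 and 6.11 at baseline and at 9.02 and 8.23 after IFNα, so that the states overlapped (change 0.81, adjusted p = 0.423). Against baseline array 3 alone the change of Gzma was 2.51 (adjusted p = 1.14e-05). Prf1, the pore-forming perforin, had a change of -0.41 (adjusted p = 0.314).

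Genes of the IFN-γ-producing kind of gamma-delta T cell were raised in 3 of 14 measured cases, and those of the IL-17-producing kind in 0 of 15, with 0 lowered on either list. Over all genes 1.53% were raised and 0.683% lowered, so 0 of 15 is near the share of all genes. The median changes of the lists were -0.13 and -0.18, and the difference between the lists was not tested. Ifng itself rose from 8.28, 7.93 and 7.85 to 9.64 and 9.74, a change of 1.68 ± 0.22 (adjusted p = 2.39e-06) or 3.20-fold. Its arrays did not overlap, and the change was 1.85 against baseline array 3 alone. Slamf7, a surface receptor of cytotoxic cells, rose by 1.09 (adjusted p = 0.0184) and Eomes, a transcription factor of effector lymphocytes, by 1.01 (adjusted p = 0.0128). Both calls were lost without baseline array 1 (adjusted p = 0.0777 and 0.067) and without either IFNα array, where the adjusted p of Slamf7 was 0.172 and 0.0614 and that of Eomes 0.0624 and 0.133. Tbx21, which encodes T-bet, had a change of -0.29 (adjusted p = 0.533). On the IL-17 list Ramp1, a neuropeptide co-receptor, had the lowest change, -0.96 (adjusted p = 0.000361), and Maf the highest, 0.49 (adjusted p = 0.337). Among 25 cytokine and chemokine genes, Cxcl10, Ifng and Csf1 were raised. Csf1, the growth factor of macrophages, rose by 1.21 ± 0.21, from 6.97, 6.56 and 7.16 to 8.17 and 8.04, and against baseline array 3 alone its change was 0.95, under the 2-fold threshold. Of 23 cytokine receptors, Il10ra was raised, by 1.03 (adjusted p = 0.0149). It was 0.49 higher against baseline array 3 alone, and its call was lost without any 1 of baseline arrays 1 and 2 and IFNα arrays 1 and 2 (adjusted p = 0.0797, 0.0503, 0.129 and 0.0727).

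Surface molecules of activation, costimulation and trafficking changed in both directions. Cd69, an early activation marker that holds the egress receptor S1PR1 inside the cell, rose from 10.03, 10.07 and 9.42 to 11.78 and 11.93, a change of 2.02 ± 0.25 (adjusted p = 5.17e-07). Rgs1, a brake on chemokine receptor signalling, rose from 8.52, 8.06 and 7.38 to 9.98 and 10.22, a change of 2.12 ± 0.35. Cd274, which encodes the checkpoint ligand PD-L1, rose from 8.04, 8.17 and 8.23 to 11.15 and 11.06, a change of 2.96 ± 0.29 or 7.80-fold. The 3 baseline values of Cd274 lay close together and far under both IFNα values. Cd86, the costimulatory ligand, rose by 2.42 ± 0.27, from 6.19, 5.78 and 6.46 to 8.94 and 8.20. Within each state the arrays of Cd86 had the order of the B cell marker sum, and the part of B cell RNA in it was not tested. Of 21 genes of egress, homing and retention, 2 were raised and 2 lowered. The homing receptor Ccr7 fell from 11.24, 10.99 and 11.49 to 10.25 and 10.08, a change of -1.07 ± 0.21 (adjusted p = 0.00114). The arrays of Ccr7 had the order of the B cell marker sum as well. Cxcr4 fell from 9.56, 9.78 and 9.97 to 8.89 and 8.44, a change of -1.10 ± 0.23 (adjusted p = 0.0017), and did not pass without IFNα array 2 (adjusted p = 0.117). Without IFNα array 2 the change of Ccr7 was -0.99, and without baseline array 3 it was -0.95, both just short of 2-fold. S1pr1 was at 10.19, 11.30 and 10.85 at baseline and 10.01 and 10.01 after, a change of -0.77 (adjusted p = 0.0734). The chemokine receptor Cxcr3 and the transcription factor Klf2, which drives S1pr1, had changes of -0.81 (adjusted p = 0.0185) and -0.63 (adjusted p = 0.151).

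Of 20 measured components of the T cell receptor pathway, 2 were lowered and 0 raised. Cd5, an inhibitory co-receptor, fell from 10.43, 10.76 and 10.79 to 9.48 and 9.07, a change of -1.38 ± 0.15 (adjusted p = 8.01e-08). It stayed called without IFNα array 2, at -1.18, and against baseline array 3 alone, at -1.51. The related Cd6 fell by 1.02 (adjusted p = 0.000892), with an adjusted p of 0.0839 without IFNα array 2 and values of -1.0 and -0.93, short of the 2-fold threshold, without baseline arrays 1 and 2. The adaptor genes Lat and Lcp2 had changes of -0.62 and -0.67 (adjusted p = 0.0184 and 0.0074), and the kinase gene Zap70 of -0.46 (adjusted p = 0.0945). Both IFNα arrays lay below all 3 baseline arrays for 10 of the 20 genes, against 13% of all genes. The median change of the list was -0.39, and it was -0.53 against baseline array 3 alone. The summed intensity of 5 alpha-beta T cell markers, Cd5 among them, was 2336, 2820 and 2925 at baseline and 1653 and 1524 after IFNα, and Cd5 was the 1 lowered marker of the 5. Without Cd5 the sum of the other 4 was 954, 1091 and 1156 at baseline and 939 and 986 after IFNα. The median change of the 5 markers was 0.04.

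Of 20 lymphoid transcription factors, 2 were raised and 2 lowered. Eomes and Zeb2, both of effector lymphocytes, rose by 1.01 and 1.08. Zeb2 was at 6.71, 6.43 and 6.54 at baseline and at 8.26 and 7.02 after IFNα, and without IFNα array 1 its change was 0.46 (adjusted p = 0.354). Id3, known in gamma-delta T cells as a target of receptor signalling, fell by 1.03 (adjusted p = 0.0069), and its adjusted p was 0.139 without IFNα array 1. Gata3 fell by 1.02 (adjusted p = 0.00551), with an adjusted p of 0.211 without IFNα array 2. Without baseline arrays 1 or 2 the change of Id3 was -0.94 or -0.95, and without baseline arrays 2 or 3 that of Gata3 was -0.92 or -0.99. Id3 was also the 1 lowered gene of 8 measured on the list of gamma-delta T cell identity, with 0 raised. Lef1, a factor of naive T cells, had a change of -0.99 (adjusted p = 0.000413), just short of the threshold.

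Genes of cell death were raised in 6 of 16 measured cases and lowered in 1. Casp4, the inflammatory caspase that senses endotoxin inside cells, rose from 6.95, 6.54 and 6.41 to 9.22 and 9.36, a change of 2.66 ± 0.33. Mlkl, the pore of necroptosis, rose from 6.10, 5.91 and 6.11 to 8.69 and 8.5, a change of 2.55 ± 0.27. Daxx rose by 2.28 and Casp8, the initiator of receptor-driven apoptosis, by 1.19. Casp8 was no longer called with a term for preparation (0.96, under 2-fold), and its change against baseline array 3 alone was 1.02. Bcl2l11, the pro-apoptotic BIM, fell by 1.04 (adjusted p = 0.0156), and the call was lost without IFNα array 2 (adjusted p = 0.405) and without baseline array 3 (adjusted p = 0.0794). Hspa5, the main chaperone of the endoplasmic reticulum, rose from 10.20, 10.51 and 10.14 to 11.54 and 11.60, while Herpud1, of the degradation machinery of the same compartment, fell from 10.61, 10.53 and 10.69 to 9.36 and 9.37. These changes were 1.28 ± 0.23 for Hspa5 and -1.24 ± 0.15 for Herpud1 (adjusted p = 0.000224 and 6.31e-07). Among 19 cell cycle genes, 2 were raised, Ccnd2 by 1.27 and Mki67 by 1.14, and each call was lost when any 1 of 3 arrays was left out. For Ccnd2 the adjusted p was 0.0528 without baseline array 1 and 0.0911 and 0.0639 without IFNα arrays 1 and 2. For Mki67 it was 0.105 and 0.126 without baseline arrays 1 and 2 and 0.337 without IFNα array 1. Immediate early genes, which respond to handling as well as to receptor signals, had 0 of 22 called. This is near the share of all genes, 1.53% raised and 0.683% lowered, and the part of handling was not tested. Jun was 1.26 higher (adjusted p = 0.0717), and with a term for preparation 1 of the 22 was raised. The amino acid transporter Slc43a2 fell by 1.01 and was no longer called without baseline array 2 (change -0.93), baseline array 3 (adjusted p = 0.0651) or IFNα array 2 (adjusted p = 0.257).

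The killer lectin-like and other NK receptors had the lowest median of the 26 lists, -0.80, with 8 of 22 measured genes lowered and 0 raised. These receptors are shared between NK cells and part of the gamma-delta T cells. Klrb1c, which encodes NK1.1, was at 9.82, 8.94 and 8.31 in baseline arrays 1, 2 and 3 and at 7.02 and 7.17 after IFNα, a change of -1.93 ± 0.28 (adjusted p = 9.13e-06). Against baseline array 3 alone it was -1.21 (adjusted p = 0.0125). Klrb1a was at 8.24, 6.19 and 5.97 and then at 4.94 and 5.17, a change of -1.75, and -0.92 against baseline array 3 alone (adjusted p = 0.0549). The states did not overlap for either gene, but for Klrb1a baseline array 1 lay more than 2 log2 units above the next array. Cd160 was at 10.47, 10.13 and 9.67 and then at 9.25 and 8.24, a change of -1.34. Klrc2, of the NKG2 family that pairs with CD94, was at 8.49, 9.29 and 8.19 and then at 7.57 and 7.11, a change of -1.32. Klrc3 and Klrb1b fell, with changes of -1.02 and -1.17, as did Klra8 and Klre1, with -1.64 and -1.21. Cd160 and Klrc2 were not called without IFNα array 2 (adjusted p = 0.262 and 0.0719).

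NK cell markers varied among the baseline arrays. Ncr1, which encodes the NK receptor NKp46 and was used here as a marker of NK cells, was at 9.94, 7.59 and 5.95 at baseline and at 6.31 and 6.77 after IFNα, so baseline array 1 was the highest and baseline array 3 the lowest of the 5. Of the 7 NK cell markers 1 was raised, Eomes, and 3 were lowered, Klra8, Klrb1c and Klre1, which are also receptors of the list. Klra8 was at 8.09, 5.96 and 5.0 at baseline and at 4.76 and 4.66 after, and its change against baseline array 3 alone was -0.29 (adjusted p = 0.889). Klre1 was at 7.01, 5.11 and 4.78 and then at 4.22 and 4.63, with a change against baseline array 3 alone of -0.36 (adjusted p = 0.693). Without baseline array 1 the changes of Klra8 and Klre1 were -0.77 and -0.53, and that of Klrb1b was -0.97. Against baseline array 3 alone the median of the list was -0.28 and 1 of 22 genes was lowered, and without IFNα array 2 there were 2. Without any 1 of IFNα arrays 1 and 2 the adjusted p of Klra8 was 0.104 and 0.219 and that of Klre1 0.191 and 0.085. Klrb1b and Klrc3 had adjusted p values of 0.26 and 0.278 without IFNα array 2, and Klrc3 a change of -0.76 without baseline array 2. The part of NK cell RNA in these falls was not tested. Klrd1 (CD94), at 11.04, 10.68 and 9.56 and then 9.34 and 9.54, was not called, nor was Klrk1 (NKG2D), with a change of 0.32.

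**Figure D4:**
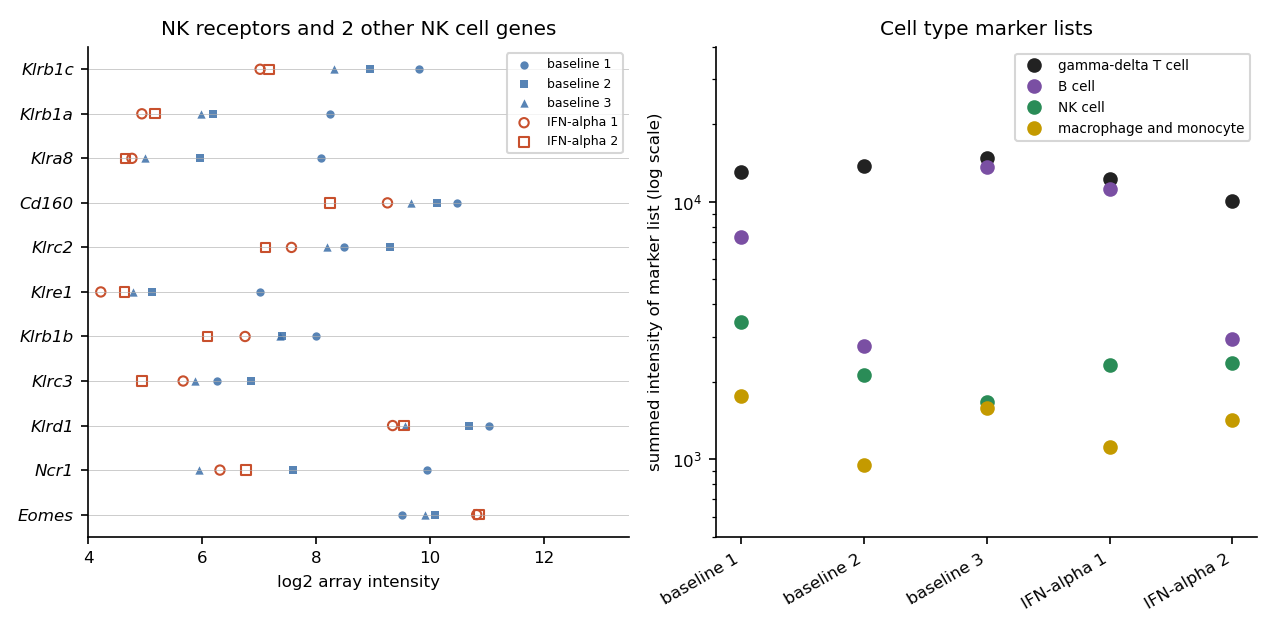
Left, log2 array intensity of 9 NK receptor genes, Ncr1 and Eomes in the 5 gamma-delta T cell arrays; right, summed intensity (log axis) of 4 marker lists in the same arrays. Baseline array 1 is the highest of the 5 for 6 of the 8 lowered receptors and baseline array 2 for Klrc2 and Klrc3, and the B cell marker sum is highest in baseline array 3, at 13664.

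The other large falls were of genes with varied roles. Scd2, a desaturase that makes monounsaturated fatty acids, fell from 8.97, 9.39 and 9.69 to 8.05 and 6.82, a change of -1.91 ± 0.26 (adjusted p = 3.42e-06). IFNα array 2 was the lower of the pair, and without it the change was -1.30 (adjusted p = 0.00554). Scd2 was the 1 gene lowered of 19 in sterol and fatty acid synthesis, against 0.683% of all genes. The count on this list was 3 without baseline array 1, where 240 of all genes were lowered. It was 2 with a term for preparation, where 132 of all genes were lowered. Ubash3b, a phosphatase that dampens T cell receptor signalling, fell from 8.51, 8.94 and 8.58 to 7.48 and 6.74. Adgre5, the adhesion receptor CD97, fell from 10.64, 11.34 and 11.28 to 9.90 and 9.33, a change of -1.47 ± 0.21. Cdc25b, a cell cycle phosphatase, fell from 8.73, 9.17 and 9.58 to 7.73 and 7.75, and Sgsh, a lysosomal sulfatase, from 8.67, 8.97 and 9.52 to 7.73 and 7.52. The changes of Cdc25b and Sgsh were -1.42 and -1.43 with SE of 0.21 each. Hvcn1, a proton channel, fell from 9.86, 9.69 and 10.56 to 9.28 and 7.98, and Pdk2, a brake on pyruvate oxidation, from 8.14, 8.39 and 9.03 to 7.63 and 6.67. For Hvcn1 and Pdk2, IFNα array 1 lay just under the lowest baseline array and IFNα array 2 far under it. Within each state, the arrays had the same order as for the B cell marker sum for 19 of the 135 lowered genes (14.1%) and 32 of the 302 raised genes (10.6%), against 5.03% of all genes. Among the largest changes these were the falls Fhl3, Gpsm3, Hvcn1 and Rras and the rises Rsad2 and Tlr7. Other called genes named here with this order included the rises Cd86, Csf1, Irf7 and Mlkl and the fall Ccr7. This order needs IFNα array 1 above IFNα array 2, which held for 119 of the 135 lowered and 239 of the 302 raised genes. The shares therefore cannot single out B cell RNA, and its part in any of these changes was not tested. Prdm16, a transcriptional regulator, fell from 8.29, 9.05 and 9.58 to 7.57 and 7.74, and Rras, a small GTPase, from 9.66, 9.51 and 10.07 to 8.64 and 8.13. Gpsm3, Ubald1, Fbrs, Ctdsp1, Rflnb and Fhl3 fell, with changes of -1.35, -1.44, -1.5, -1.48, -1.61 and -1.41.

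Single arrays decided many of the falls. Of the 20 largest falls, 10 were no longer called without IFNα array 2, with adjusted p values from 0.0534 for Ubash3b to 0.365 for Hvcn1. The others of the 10 were Cd160 (0.262), Ctdsp1 (0.182), Pdk2 (0.114), Rras (0.105), Fhl3 (0.0932), Klrc2 (0.0719), Rflnb (0.0693) and Fbrs (0.0636). With the gamma-delta T cell arrays fitted alone, at 3 residual degrees of freedom, 11 of the 20 were no longer called. That fit takes the spread from these arrays only. The adjusted p values of the 11 ran from 0.0573 for Gpsm3 to 0.285 for Klrb1a, with 0.156 for Prdm16. The others of the 11 were Cd160, Ctdsp1, Fbrs, Fhl3, Hvcn1, Klrc2, Pdk2 and Rflnb. Against baseline array 3 alone, 3 of the 20 were no longer called: Cd160, Klrb1a and Klrc2. Of the other called genes named here, Casp8, Cd6, Csf1, Eomes, Id3, Il10ra, Klra8, Klrb1b, Klrc3, Klre1, Mki67, Serpinb9, Slamf7, Tapbp and Zeb2 were not called against that array alone. With a term for preparation, Casp8, Cd6, Eomes, Gata3, Id3, Il10ra, Klra8, Klrc3, Klre1 and Mki67 were not called. The term is a shift of stained baseline arrays shared by all cell types, and it does not model the sort labels of gamma-delta T cells. For the 25 largest rises and 20 largest falls, an adjusted p below 0.05 with this term was part of the rule for naming. IFNα array 2 was below IFNα array 1 for 119 of all 135 lowered genes, by a median of 0.47 on the log2 scale, and for 239 of the 302 raised genes, by a median of 0.23. Over all genes array 2 was 0.02 above array 1. Both IFNα arrays lay below all 3 baseline arrays for 133 of the 135 lowered genes, and above them for 298 of the 302 raised genes. Over all genes these shares were 13% and 10.7%. The genes were called on these same arrays, which favours such separation, so it is no separate support for the calls.

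The response was set beside that of the 5 other lymphocyte types, NK, NKT, CD4+ T, CD8+ T and regulatory T cells, whose baseline arrays are their own. Of the 302 raised genes, 123 (40.7%) were also raised in all 5 types and 29 (9.6%) in none. Their median change was 1.57 in gamma-delta T cells and 1.33 for the mean of the other 5. Of the 135 lowered genes, 1 (0.741%) was lowered in all 5 types and 93 (68.9%) in none, with medians of -1.12 and -0.53. The values had the same sign in all 5 types for 264 of the raised and 106 of the lowered genes. The genes raised in NKT cells held 87.4% of those raised in gamma-delta T cells, which were 46.2% of the 571 raised in NKT cells. For CD8+ T cells these shares were 57.9% and 88.4%. A gene called in gamma-delta T cells and not in another type is not thereby shown to differ between them.

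**Figure D5:**
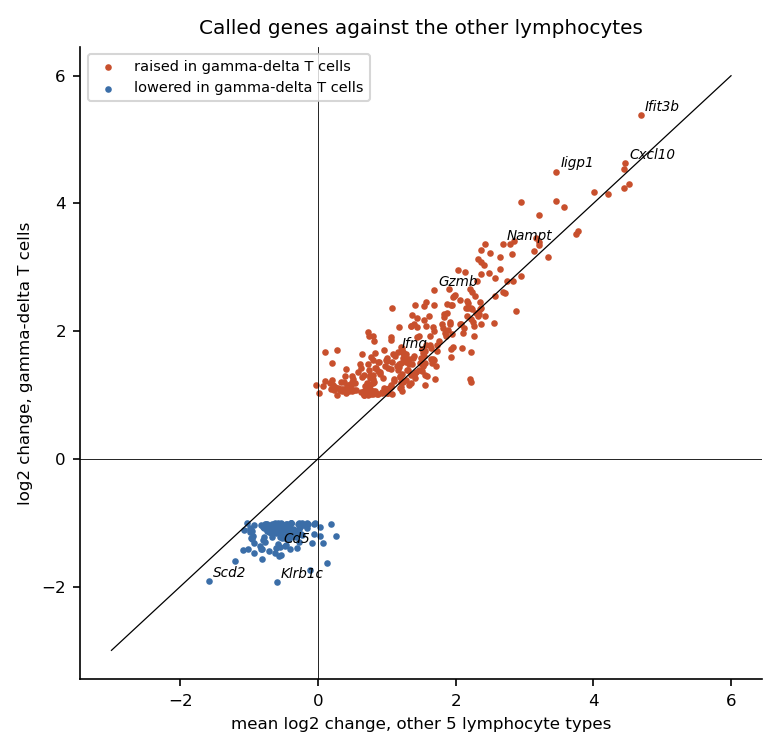
Log2 change of each called gene in gamma-delta T cells (y axis) against its mean log2 change in the other 5 lymphocyte types (x axis); red points are the 302 raised and blue points the 135 lowered genes, and the diagonal marks equal change. The calls were made on the y axis, which places the points away from 0 on that axis; most raised and lowered genes lie on the same side of 0 on both axes.

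The test of the difference itself called 0 genes larger and 0 smaller in gamma-delta T cells than in the mean of the other 5 types, by limma. At an unadjusted p under 0.05 there were 1381 of 19752 genes, and the smallest adjusted p was 0.103. Among the named genes, the change of Iigp1 was 4.50 against a mean of 3.46 elsewhere, a difference of 1.04 (95% interval 0.49 to 1.59, adjusted p = 0.278). That of Ifit2 was 4.02 against 2.94, a difference of 1.07 (0.48 to 1.67, adjusted p = 0.366). For the falls, Klrb1c stood at -1.93 against -0.60 (difference -1.33, interval -1.94 to -0.71, adjusted p = 0.175) and Cd5 at -1.38 against -0.56 (difference -0.82, interval -1.17 to -0.48, adjusted p = 0.103). Prdm16 stood at -1.32 against -0.09 (difference -1.23, interval -1.69 to -0.76, adjusted p = 0.103). These intervals are not adjusted for the number of genes. Against CD8+ T cells alone 0 genes were called by limma, with 834 at an unadjusted p under 0.05 and a smallest adjusted p of 0.481.

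Against NKT cells, which share innate features with gamma-delta T cells, the change differed for 14 of 19752 genes, 3 larger (0.0152%) and 11 smaller (0.0557%) in gamma-delta T cells. Ifi205, a DNA-binding interferon gene, rose in both. Ifi205 went from 3.96, 4.84 and 4.94 to 6.81 and 7.25 in gamma-delta T cells, a change of 2.45, and from 4.67, 4.68 and 5.79 to 11.80 and 9.98 in NKT cells, a change of 5.84 (difference -3.39 ± 0.59, adjusted p = 0.00717). Mmp13, a collagenase, had changes of 0.65 and 3.67 (difference -3.02, adjusted p = 0.000131). The receptor genes Klrc2 and Klrc3 had changes of -1.32 and -1.02 in gamma-delta T cells and of 0.73 and 1.03 in NKT cells, differences of -2.05 and -2.06. Klrc3 was at 7.01, 7.06 and 7.17 in the NKT baseline arrays and at 8.06 and 8.16 after IFNα, so both IFNα arrays were above all baseline arrays there and below them in gamma-delta T cells. Mmp9 had a change of -0.36 in gamma-delta T cells and of -2.64 in NKT cells. The summed intensity of the 9 macrophage and monocyte markers was 3481 to 10954 in NKT baseline arrays and 15103 and 5897 after IFNα, against 950 to 1768 over the gamma-delta T cell arrays, and the part of macrophage RNA in these differences was not tested. For differences between cell types, baseline array 3 alone means that only this baseline array was kept in each of the 6 lymphocyte types. The count was 0 against baseline array 3 alone and 1 without IFNα array 2 of gamma-delta T cells. It was 22 without their IFNα array 1. Without NKT baseline arrays 2 or 3 it was 9 or 38, and without NKT IFNα arrays 1 or 2 it was 4 or 93.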

How the data were processed

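RNA of sorted spleen cells was measured on Mouse Gene 1.0 ST arrays of Affymetrix. The values the authors deposited are linear probe set intensity values, made with Affymetrix Power Tools and RMA, per the submitters' processing notes; for both, the version is not given in the sources used here, nor is a build. Each intensity was turned into log2 here. Probe sets were named from the platform annotation. The brightest probe set stood for a gene with several, which left 19752 genes from 24922 probe sets. The 1399 probe sets with several symbols and the 2098 without a symbol were left out.

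The change after IFNα was fitted by lmFit and eBayes of limma 3.58.1 (R 4.3.3) over all 43 arrays in 18 groups of cell type and state, which share 1 estimate of the spread with 25 residual degrees of freedom. Differences between cell types were contrasts of these changes. P-values were adjusted by Benjamini-Hochberg over all genes. In simulated data for this comparison over 19752 genes with 40 changed genes of each size, 95% of log2 changes of -1.5, 97.5% of 1.5 and 100% of -2, 2 and 3 were called, with 1 false call. The simulated noise was independent between arrays and had the spread that the model fitted. It held no shifts shared by the genes of an array, no RNA of other cell types and no preparation difference. It therefore checks the code and gives no error rate for the real arrays.

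The genes named first are the 25 largest rises and 20 largest falls among called genes whose states did not overlap, predicted genes left out. They also had to keep their sign at an adjusted p below 0.05 with the term for preparation. Klra8, with a change of -1.64, was left out of the largest falls by this condition. Other genes come from 26 lists (404 of 476 genes measured) and 8 marker lists. The members, lists and markers were chosen with earlier results of these data known. Alternatives were baseline array 3 alone, a term for preparation, the 5 arrays alone, the replicate number as a block, quantile normalisation, median centring, a filter on dim genes (log2 of at least 7 in 2 arrays), a variance trend, array weights, the mean of probe sets, no fold threshold and each array left out. The term for preparation was a shift of baseline arrays labelled as stained, shared by all cell types. It held no sort label, so the sort difference among the gamma-delta T cell arrays was not modelled. Baseline array 3 alone applied to gamma-delta T cells for their own change, and to all 6 lymphocyte types for differences between cell types. Leaving out baseline array 1 and IFNα array 2 together, and each NKT array in turn, was chosen after seeing the data. Arrays give no counting depth, so precision is limited by their number. Figures were drawn with matplotlib 3.10.9 in Python 3.11.15.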

Additional observations from a re-analysis of the deposited data

Results flagged for a closer look

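The change after IFNα differed between gamma-delta T cells and NKT cells, by limma's test of the difference itself with Benjamini-Hochberg adjustment, for 13 named genes and 1 predicted gene. Each value here is the log2 change in gamma-delta T cells minus that in NKT cells.

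Smaller in gamma-delta T cells were Ifi205 (-3.39, adjusted p = 0.00717), Mmp13 (-3.02, adjusted p = 0.000131), Phf11d (-2.41, adjusted p = 0.0107), Tfec (-2.22, adjusted p = 0.0122) and Fcgr1 (-2.14, adjusted p = 0.0359). Fcgr1, which encodes the high-affinity antibody receptor of macrophages, had changes of 0.24 in gamma-delta T cells and 2.38 in NKT cells, and Tfec of 0.15 and 2.36. The macrophage and monocyte marker sum was 15103 in NKT IFNα array 1 and 5897 in array 2, against 1115 and 1417 in the gamma-delta T cell IFNα arrays, and its part in these differences was not tested.

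Also smaller were Klrc3 (-2.06, adjusted p = 0.00329), Klrc2 (-2.05, adjusted p = 0.00717), Hacd4 (-1.80, adjusted p = 0.0122), Clnk (-1.25, adjusted p = 0.0271) and Trpm6 (-1.25, adjusted p = 0.00668). Larger in gamma-delta T cells were Mmp9 (2.27, adjusted p = 0.00473), Mical2 (1.02, adjusted p = 0.0112) and Agfg2 (1.00, adjusted p = 0.0302), of which Mmp9 had changes of -0.36 in gamma-delta T cells and -2.64 in NKT cells. Baseline array 3 alone here means that only this baseline array was kept in each of the 6 lymphocyte types, NKT cells included. Against baseline array 3 alone none of the 13 passed, and with a term for preparation, shared by all cell types, all 13 passed.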

How the results depend on the processing

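The 302 raised genes became 188 when the 5 arrays were fitted alone and 470 with no fold threshold, 250 to 370 when 1 array was left out, and 246 to 353 under the other alternatives. The 135 lowered genes became 367 against baseline array 3 alone, 22 with the 5 arrays alone, 662 with no fold threshold, 34 to 361 when 1 array was left out, and 66 without both baseline array 1 and IFNα array 2. Of those 34, 32 were among the 135. Replicate numbers are shared by the states, but no label states a pairing, and the arrays were treated as unpaired. Correlations of the deviations of same-numbered arrays were -0.301 and -0.22. The deviations of 2 IFNα arrays mirror each other, so these values cannot decide whether arrays were paired. The replicate block gave 340 raised and 143 lowered genes. In the differences between cell types that follow, baseline array 3 alone means only this baseline array in each of the 6 lymphocyte types. Against the mean of the other 5 types, the 0 larger differences became 6 under quantile normalisation, 1 without both arrays and 0 to 2 when 1 array was left out; the 0 smaller became 3 against baseline array 3 alone, 11 under quantile normalisation, 1 under median centring, array weights or without both arrays, and 0 to 10 when 1 was left out. Against CD8+ T cells, 0 became 1 with array weights, 2 without both arrays and 0 to 3 when 1 was left out. Against NKT cells, 14 became 0 against baseline array 3 alone, 23 under quantile normalisation or array weights, 2 without both arrays, and 1 to 93 when 1 array was left out. Changes that turned sign belonged to genes that were not called: Gzma (-0.041 without baseline array 3; range -0.041 to 1.82 when 1 array was left out), Ncr1 (0.59 against baseline array 3 alone), Trgv1 (-0.082 with array weights, -0.077 without both arrays, range -0.10 to 0.26), Ifnar1 (0.00090 with the replicate block, 0.055 without both arrays, range -0.30 to 0.21), Ifnar2 (range -0.47 to 0.032), Ifitm2 (-0.011 against baseline array 3 alone) and Tlr9 (-0.30 against baseline array 3 alone, range -0.062 to 1.70). The causes were not tested.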
